A study of Mus musculus with 4 samples.

Results

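Receptor tyrosine kinases are membrane receptors that bind a growth factor or a matrix ligand outside the cell and phosphorylate tyrosines inside it. The genes of this class described here, chosen by name and not by their values, were Fgfr1, Axl, Ddr2, Pdgfra, Met, Igf1r, Egfr, Erbb2, Pdgfrb and Kit. All 10 were found among the 35905 genes of the tables. Oligo-dT-captured mRNA was sequenced from LLC (Lewis lung carcinoma) cells, a transplantable lung cancer line of C57BL/6 mice, grown under the skin of the flank and recovered 4 weeks after implantation. The tumours, from C57BL/6 hosts, were digested with collagenase and hyaluronidase, and TdTomato+ cells without CD45, a protein of leukocytes, were sorted. There were 2 libraries from PAD4-DN hosts (Mrp8Cre+, Padi4 fl/fl) and 2 from WT hosts (Mrp8Cre-, Padi4 fl/fl), so the floxed Padi4 allele was shared by both groups and only the Cre differed. Mrp8Cre is active mainly in neutrophils, and the sorted cancer cells were not the cells it targets; the sources used here give neither host age and sex nor whether replicates came from separate animals. The p-values therefore cover the spread among these libraries alone, which may be technical.

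Once bound by ligand, many receptors of this class pair up and signal through adaptors such as Grb2 and Shc1 into the RAS-MAPK and PI3-kinase pathways. In solid tumours they carry growth and survival signals. Sprouty, Spred, Dusp and Cbl family proteins restrain the same pathway. Some receptors also mark other cells of a tumour: Pdgfra and Pdgfrb fibroblasts and pericytes, Kit mast cells and melanocytes.

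The libraries held 20036322 and 24142484 estimated counts in PAD4-DN hosts and 23414984 and 25327974 in WT hosts. The keratins Krt8 and Krt18 were high in every library, at 131 to 178 TPM and 184 to 227 TPM over the 4 libraries, whereas the epithelial genes Epcam and Cdh1 did not exceed 0.351 and 0.112 TPM. TPM, a transcript share scaled to a fixed total, is corrected for transcript length and was used to compare levels between genes. Ptprc, which encodes CD45, was at 1.88 and 0.324 TPM in PAD4-DN and 0.713 and 0.551 TPM in WT. One pattern crossed the host groups: Col1a1, a collagen chain typical of fibroblasts, was at 162 and 4.14 TPM in PAD4-DN replicates 1 and 2, against 3.67 and 127 TPM in WT replicates 1 and 2. Col1a2 followed the same split, at 129 and 1.24 TPM in PAD4-DN hosts and 0.421 and 108 TPM in WT hosts. PAD4-DN replicate 1 and WT replicate 2 thus stood apart from the other libraries in these genes. In bulk RNA of this kind, fewer cells of a type and less RNA per cell cannot be told apart.

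Fgfr1, the fibroblast growth factor receptor, and Axl, a receptor of the TAM family, were the most abundant, at means of 218 and 206 TPM over the 4 libraries. Ddr2, a collagen receptor (117 TPM), Pdgfra, a platelet-derived growth factor receptor (75.6 TPM), and Met, the receptor of hepatocyte growth factor (61.0 TPM), came next. Igf1r and Egfr followed at 26.5 and 24.2 TPM. Erbb2 (4.13 TPM) and Pdgfrb (1.97 TPM) were low, and Kit was near the limit of detection at 0.164 TPM. The ranges over the 4 libraries overlapped between Fgfr1 and Axl, between Pdgfra and Met and between Igf1r and Egfr, so the order within those pairs was not resolved. All other neighbours in the order had ranges that did not overlap. Fgfr1 had more TPM than 98.0% of protein-coding genes, and Kit more than 36.7%.

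**Figure D1:**
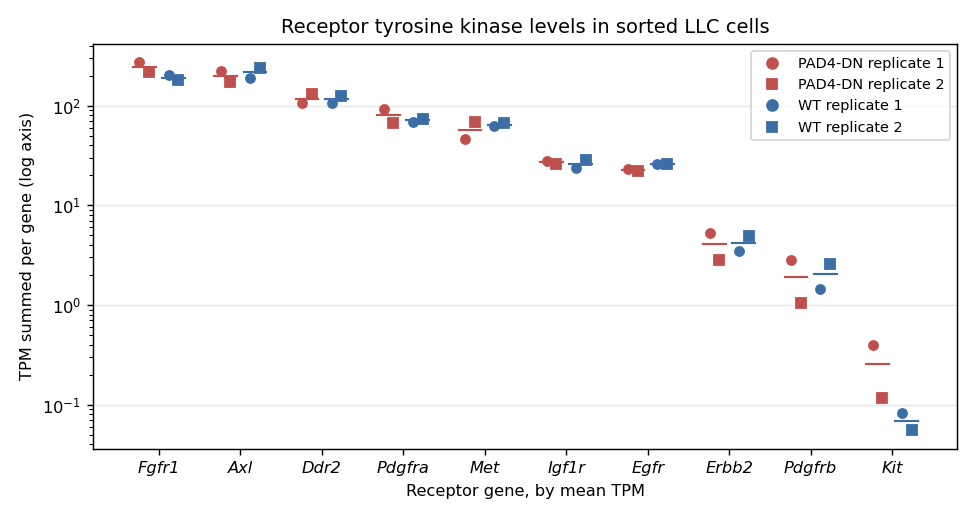
Summed TPM of each receptor gene on a log axis, genes ordered by mean level; each point is a library (PAD4-DN left, WT right) and short lines are group means. Fgfr1 and Axl lie between 173 and 272 TPM, while Kit stays at or below 0.399 TPM in all 4 libraries.

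Among 58 receptor tyrosine kinase genes in all, 14 had a mean of at least 10 TPM, and 7 of those were among the receptors described here. The listed receptors together held 74.1% and 74.7% of all receptor tyrosine kinase TPM in the PAD4-DN libraries, against 74.3% and 72.8% in the WT libraries. The most abundant receptors outside the list were Ryk, a Wnt co-receptor with an inactive kinase domain, at a mean of 83.5 TPM, and the ephrin receptor Epha2, at 43.5 TPM. Ptk7, another pseudokinase, averaged 26.0 TPM. Styk1, Insr, Ddr1 and Mertk also exceeded 10 TPM on average, and Lmtk2, Ephb4 and Flt1 completed the 10 most abundant. At the other end, 33 of the 58 averaged under 1 TPM, and 8 were listed at 0 in every library, among them Fgfr2, Erbb4, Alk and Ros1. Erbb3, the usual partner of Erbb2, did not exceed 0.711 TPM.

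**Figure D2:**
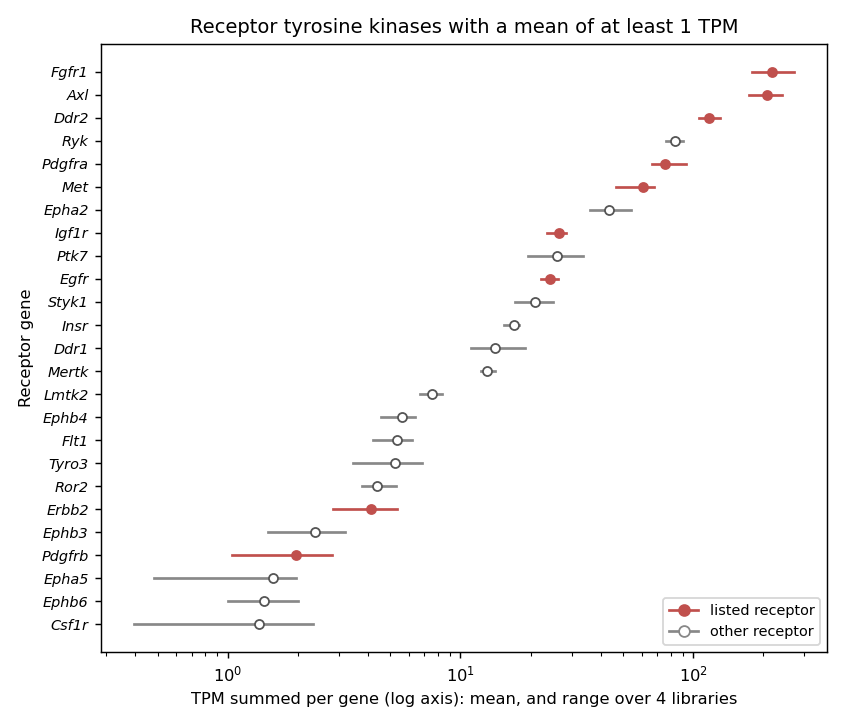
Mean TPM (point) and range over 4 libraries (line) of every receptor tyrosine kinase gene with a mean of at least 1 TPM, on a log axis; filled points are the receptors described here. Fgfr1, Axl and Ddr2 are the 3 highest, and Ryk and Epha2 lie among the listed receptors.

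Fgfr1 (ENSMUSG00000031565, chromosome 8) transduces fibroblast growth factor signals through the adaptor Frs2. It was at 272 and 217 TPM in the PAD4-DN libraries, against 203 and 179 TPM in the WT libraries. On this scale both PAD4-DN libraries lay above both WT libraries. In CPM (counts scaled by TMM library size and not by length) the groups overlapped, at 596 and 459 CPM in PAD4-DN and 508 and 421 CPM in WT.

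Fgfr1 transcripts differ in a 267-base exon that encodes the first immunoglobulin loop of the receptor. Coding forms that keep it held 44.4% and 53.7% of the coding TPM that could be assigned in PAD4-DN libraries, against 54.6% and 52.6% in WT libraries, so long and short forms were about equally abundant and the groups overlapped.

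Axl (ENSMUSG00000002602, chromosome 7) binds Gas6 and is often linked to mesenchymal traits of carcinoma cells. Its level was 221 and 173 TPM in the PAD4-DN libraries, against 191 and 241 TPM in the WT libraries. The highest library was WT replicate 2 and the lowest PAD4-DN replicate 2, and the groups overlapped. WT replicate 2 and PAD4-DN replicate 1, the libraries with high Col1a1, both lay above the others. Axl is spliced with or without a short exon in its extracellular part near the membrane, shown here with 24 bases on each side; the capitals mark the 27-base exon, 9 codons long, in GENCODE M21 transcripts.
Axl with the exon: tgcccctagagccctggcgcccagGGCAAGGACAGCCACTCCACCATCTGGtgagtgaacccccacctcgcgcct
Axl without the exon: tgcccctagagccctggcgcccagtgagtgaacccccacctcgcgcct
The form with the exon held 83.9% and 89.3% of the TPM of both forms in the PAD4-DN libraries, against 87.7% and 87.5% in the WT libraries. It had 7946 and 8517 estimated counts in PAD4-DN and 8786 and 12562 in WT. A 602-base transcript with a retained intron, Axl-203, took 16.7% of Axl TPM on average although it had 159 to 250 estimated counts, because TPM weighs short transcripts upwards.

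Ddr2 (ENSMUSG00000026674, chromosome 1) is activated by fibrillar collagen. It was at 106 and 129.8 TPM in the PAD4-DN libraries, against 108 and 125 TPM in the WT libraries. Each group held a lower replicate 1 and a higher replicate 2, and the groups overlapped. Its main full-length transcript held 50.5% of the gene's mean TPM, and a 672-base coding fragment and a 641-base retained-intron transcript held 21.4% and 14.4%. Of its collagen ligands, Col1a1 spanned 40.9-fold in CPM over the 4 libraries, Col3a1 1.77-fold and Ddr2 itself 1.28-fold. Col3a1 was high throughout, at 5100.0 and 2754 TPM in PAD4-DN and 3060 and 3398 TPM in WT.

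Pdgfra (ENSMUSG00000029231, chromosome 5) binds platelet-derived growth factors A and C. It was at 93.0 and 66.6 TPM in the PAD4-DN libraries, against 69.0 and 73.9 TPM in the WT libraries. PAD4-DN replicate 1 was the highest and PAD4-DN replicate 2 the lowest. PAD4-DN replicate 1 and WT replicate 2, the libraries with high Col1a1, both lay above the others. The range was 1.38-fold in CPM, against 531-fold for Col1a2, and Pdgfra was at 66.6 and 69.0 TPM in the libraries where Col1a2 was at 1.24 and 0.421 TPM. Pdgfra thus stayed abundant in the libraries with few type I collagen transcripts. The other fibroblast markers were mixed. Dcn spanned 1.36-fold, Dpt 1.89-fold, Lum 1.98-fold and Fap 2.42-fold in CPM. Mfap5 spanned 198-fold, Pi16 23.5-fold, Col14a1 17.6-fold and Thy1 10.1-fold, each higher in the libraries with high Col1a1. The part of fibroblasts in the Pdgfra level was not tested. Pdgfra-201 was the main transcript, with 64.1% of the gene's mean TPM. A second one with the same coding length but another first exon held 15.8%, and a 442-base coding fragment held 13.2% of TPM from 24.2 to 41.5 estimated counts.

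Pdgfrb (ENSMUSG00000024620, chromosome 18), the receptor of factors B and D and a marker of pericytes and fibroblasts, was far less abundant than Pdgfra. It was at 2.81 and 1.04 TPM in the PAD4-DN libraries, against 1.45 and 2.60 TPM in the WT libraries, and its counts ran from 92 to 249. Pdgfrb was higher in PAD4-DN replicate 1 and WT replicate 2, the libraries with high Col1a1, than in the other libraries of either group. Pericyte and smooth muscle markers, a list without Pdgfrb, were low: 7 of 10 stayed under 1 TPM in every library, and their summed level was 14.4 and 13.2 TPM in PAD4-DN and 9.41 and 11.7 TPM in WT. Fibroblast markers summed to 6815 and 4341 TPM in PAD4-DN and 4291 and 4787 TPM in WT, with none of the 11 at 0. Col3a1 alone held most of this sum in every library, so the sum says little about the other markers. Within that list Col1a1, Col1a2, Mfap5, Col14a1, Pi16, Thy1 and Col3a1 were higher in PAD4-DN replicate 1 and WT replicate 2 than in both other libraries, whereas Dcn, Lum, Dpt and Fap were not. The part of such cells in the Pdgfrb level was not tested.

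Met (ENSMUSG00000009376, chromosome 6) drives scattering and invasion in response to hepatocyte growth factor. It was at 46.8 and 67.9 TPM in the PAD4-DN libraries, against 62.1 and 67.2 TPM in the WT libraries. PAD4-DN replicate 1 was lower than the other libraries, which lay close together. In CPM the same library was at 181, against 262 to 281 in the others. Its annotated coding sequence was the same in the main transcripts Met-203 and Met-201, which held 72.2% and 16.0% of the mean TPM.

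Igf1r (ENSMUSG00000005533, chromosome 7), the insulin-like growth factor 1 receptor, varied least of all members, by 1.12-fold in CPM. It was at 28.0 and 25.9 TPM in the PAD4-DN libraries, against 23.6 and 28.4 TPM in the WT libraries. Nearly all of it, 96.1%, was the single coding transcript Igf1r-201.

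Egfr (ENSMUSG00000020122, chromosome 11), the epidermal growth factor receptor, was at 22.9 and 22.1 TPM in the PAD4-DN libraries, against 25.8 and 26.2 TPM in the WT libraries. Both PAD4-DN libraries were lower on the TPM scale. In CPM the groups overlapped, at 116 and 118 CPM in PAD4-DN and 107 and 128 CPM in WT. A 716-base non-coding transcript, Egfr-204, weighs more in TPM than in CPM and was at 2.57 and 1.89 TPM in PAD4-DN, against 6.58 and 4.40 TPM in WT, from 15.5 to 56.1 estimated counts. The full-length coding transcript Egfr-201 was at 14.7 and 15.5 TPM in PAD4-DN and 12.2 and 16.1 TPM in WT, and its groups overlapped.
A shorter coding transcript stops before the membrane-spanning segment and the kinase domain, so it encodes an extracellular fragment. The stretch where the forms part is shown, from GENCODE M21; lower case is the 45 bases both share, and capitals mark the 43 bases after the split, which in the truncated form end in its stop codon.
Egfr full length: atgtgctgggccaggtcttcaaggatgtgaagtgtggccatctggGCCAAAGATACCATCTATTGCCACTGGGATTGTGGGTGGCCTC
Egfr truncated: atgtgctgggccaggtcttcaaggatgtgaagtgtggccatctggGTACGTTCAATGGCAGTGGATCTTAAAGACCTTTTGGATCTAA
The truncated form held 27.9% and 18.2% of the TPM of both forms in the PAD4-DN libraries, against 32.0% and 21.1% in the WT libraries. In each group replicate 1 was higher than replicate 2, and the groups overlapped.

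Erbb2 (ENSMUSG00000062312, chromosome 11) has no ligand of its own and works as a partner of other ERBB receptors. It was at 5.31 and 2.82 TPM in the PAD4-DN libraries, against 3.48 and 4.92 TPM in the WT libraries. Like Pdgfrb, it was higher in PAD4-DN replicate 1 and WT replicate 2 than in the others, by a range of 1.86-fold in CPM. Axl, Pdgfra and Igf1r were higher in these libraries too, over smaller ranges of 1.42-fold, 1.38-fold and 1.12-fold in CPM.

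Kit (ENSMUSG00000005672, chromosome 5), the stem cell factor receptor, had 17 and 4 counts in the PAD4-DN libraries, against 5 and 5 counts in the WT libraries. It was the only member that did not pass the filter on low counts and was not tested. PAD4-DN replicate 1 was the highest, at 0.399 TPM, and the other PAD4-DN library was at 0.117 TPM, against 0.0831 and 0.0552 TPM in the WT libraries. Markers of the cells that carry Kit were low as well. All 8 mast cell markers stayed under 1 TPM in every library, with Tpsab1 and Fcer1a listed at 0, and their sum was 1.60 and 0.260 TPM in PAD4-DN and 0.314 and 0.330 TPM in WT. All 5 melanocyte markers stayed under 1 TPM too, with Tyrp1 listed at 0.

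**Figure D3:**
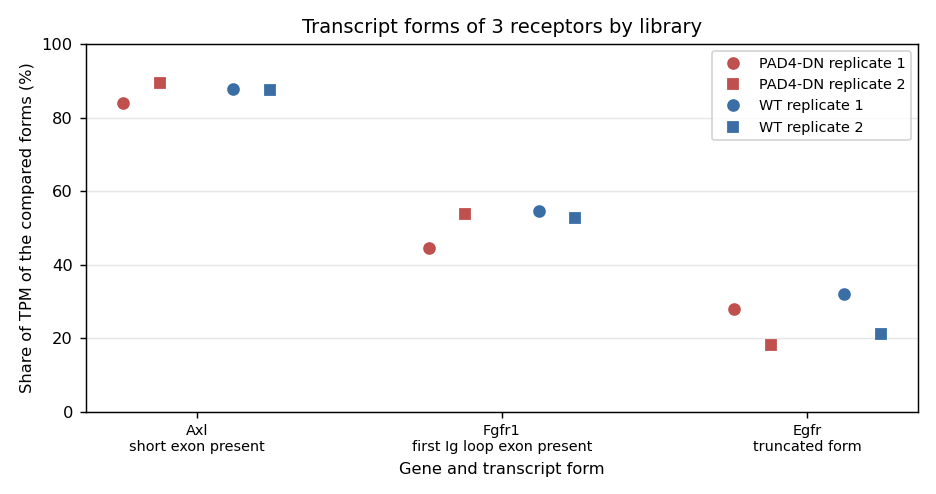
Share of TPM (percent) held by 1 form among the compared forms of Axl, Fgfr1 and Egfr; each point is a library, PAD4-DN left and WT right. The PAD4-DN and WT points overlap for each form, and the Axl form with the short exon lies between 83.9% and 89.3%.

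The study's comparison asked whether tumour cells differ when the host's neutrophils lack Padi4. In the count-based comparison none of the 9 tested receptors passed the threshold, and Kit was not tested. Of the 9 receptors tested, 0 passed an adjusted p of 0.05 by edgeR's quasi-likelihood test over 13718 genes, where 0% of all tested genes passed, and 0 had an unadjusted p under 0.05, against 2.65% of all tested genes. By DESeq2 on the same genes 0 receptors passed, against 11 of the 13718 genes. By the same test 0 receptors had an unadjusted p under 0.05, against 364 of the 13718 genes. Their CPM overlapped between hosts for all 9, whereas the groups did not overlap for 32.8% of all tested genes, with both PAD4-DN libraries above both WT libraries in 15.4% and below them in 17.4%. In TPM the groups did not overlap for 2 of the 9, Fgfr1 (higher in PAD4-DN) and Egfr (lower in PAD4-DN), against 33.4% of all tested genes. With 2 libraries against 2, an exact permutation test cannot give a two-sided p below 0.333.

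Estimated log2 fold changes lay between −0.23 and 0.18 for all 9 tested receptors, and the intervals were widest for the least abundant of them. Igf1r had a log2 fold change (PAD4-DN minus WT) of 0.01 with a 95% interval from −0.33 to 0.34. For Egfr it was −0.01, from −0.34 to 0.32. These were the narrowest intervals among the receptors. Axl had the lowest value, −0.23 (SE 0.18, adjusted p = 0.988 by edgeR), at 439 ± 47.3 CPM in PAD4-DN and 515 ± 90.2 CPM in WT (SD, n = 2 each). Fgfr1 had the highest, 0.18 (SE 0.19, adjusted p = 0.988 by edgeR), at 528 ± 96.9 CPM in PAD4-DN and 464 ± 61.2 CPM in WT. Met stood at −0.20 (SE 0.23), Ddr2 at 0.02 (SE 0.18) and Pdgfra at 0.03 (SE 0.19). The intervals ran from −0.77 to 0.37 for Met, −0.68 to 0.22 for Axl and −0.29 to 0.66 for Fgfr1. Larger differences in these abundant receptors were therefore not excluded. Erbb2, at −0.09, had an interval from −0.93 to 0.76, and Pdgfrb, at −0.14, one from −1.46 to 1.17. The median over the 9 receptors was −0.01, against 0.01 over all tested genes.

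**Figure D4:**
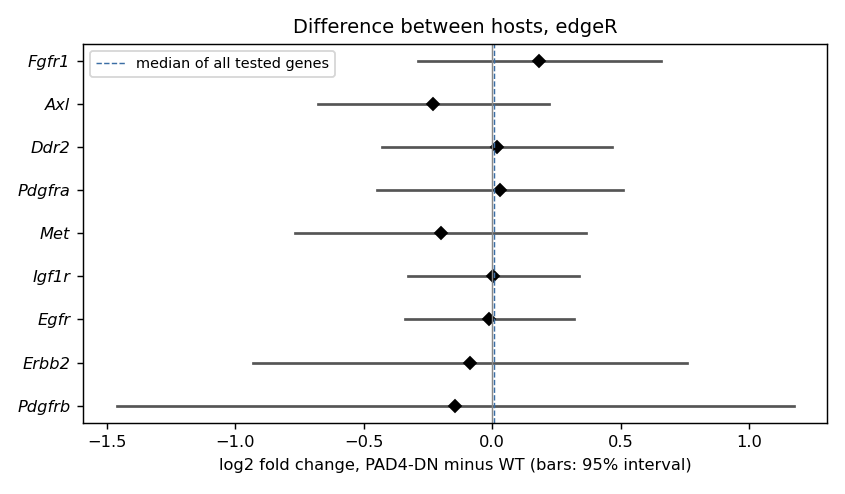
Log2 fold change, PAD4-DN minus WT, of the 9 tested receptors (diamond) with its 95% interval (line) by edgeR; the dashed line is the median of all 13718 tested genes. Every interval spans 0, and those of Erbb2 and Pdgfrb are the widest.

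Single libraries set the sign of most of these values. Without PAD4-DN replicate 1 the log2 fold change of Met was 0.07, and without PAD4-DN replicate 2 it was −0.56. For Pdgfrb the same omissions gave −1.02 and 0.40, and for Erbb2 −0.61 and 0.29. Fgfr1 was at −0.03 without PAD4-DN replicate 1 and at 0.05 without WT replicate 2. Axl kept its sign, from −0.40 without WT replicate 1 to −0.04 without WT replicate 2. With transcript lengths taken into account, Egfr moved to −0.29 (unadjusted p = 0.0469, adjusted p = 0.984 by edgeR). The part of the short non-coding transcript in that shift was not tested.

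**Figure D5:**
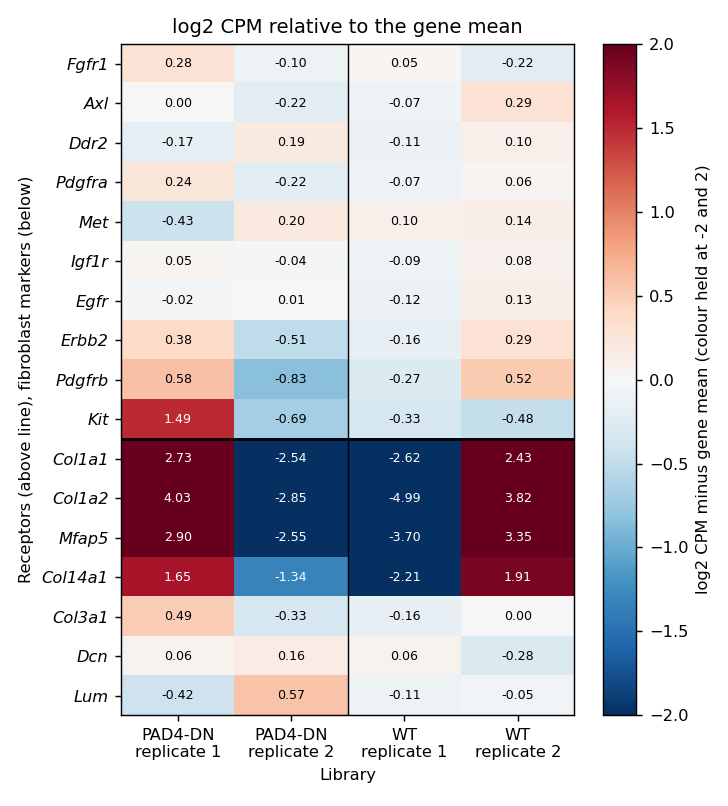
Log2 CPM of each receptor and of 7 fibroblast markers, minus the gene's mean over the 4 libraries; columns are libraries, PAD4-DN left of WT, and colours are held at −2 and 2. Erbb2, Pdgfrb, Pdgfra and Igf1r are above their mean in PAD4-DN replicate 1 and WT replicate 2, as are Col1a1 and Col1a2. Axl is also higher in these libraries than in the others, while Met is lowest in PAD4-DN replicate 1.

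Pdgfrb and Erbb2 had the widest range of the tested receptors, 1.41 and 0.89 on the log2 CPM scale. The 9679 protein-coding genes averaging 5 CPM or more were ranked by how close their centred log2 CPM lay to that of Pdgfrb over the 4 libraries, and the nearest were C1s1 (Euclidean distance 0.293), Irf1, Rnase4, Notch1 and Thsd7a. C1s1, a complement protease, was at 60.9 and 22.0 CPM in PAD4-DN and 32.1 and 45.0 CPM in WT. Nearest to Erbb2 were Lrrc1 (distance 0.108), Ttyh3, Ephx1, BC017158 and Col5a1. Col5a1, a fibrillar collagen chain, was at 487 and 269 CPM in PAD4-DN and 340 and 416 CPM in WT. With 4 libraries this is a description of shape only.

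Ligands were measured in the same libraries, and those of several receptors were present. Which cells carried them was not tested. For Egfr, amphiregulin (Areg) was at 60.2 and 80.6 TPM in PAD4-DN and 83.7 and 50.9 TPM in WT. Hbegf was at 30.2 and 24.7 TPM in PAD4-DN against 30.7 and 22.0 TPM in WT, and Ereg at 17.6 and 30.8 TPM against 22.6 and 12.1 TPM in the same order of groups. Egf itself did not exceed 0.974 TPM. The Kit ligand Kitl was at 82.3 and 83.8 TPM in PAD4-DN and 83.5 and 83.0 TPM in WT, in libraries with almost no Kit. In CPM it varied more, at 225 and 295 CPM in PAD4-DN and 240.4 and 261 CPM in WT. Hgf, the ligand of Met, was at 20.1 and 10.6 TPM in PAD4-DN and 18.5 and 13.2 TPM in WT.

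For Pdgfra, Pdgfc was at 34.9 and 38.6 TPM in PAD4-DN against 26.0 and 31.4 TPM in WT, and Pdgfa at 14.5 and 21.6 TPM against 22.4 and 18.1 TPM. Pdgfc had the smallest p among the ligands, with a log2 fold change of 0.30 (SE 0.13, unadjusted p = 0.0640, adjusted p = 0.988 by edgeR). Pdgfb and Pdgfd, the ligands of Pdgfrb, did not exceed 0.862 and 0.278 TPM. Gas6, the ligand of Axl, was at 1.93 and 0.0760 TPM in PAD4-DN and 0.0745 and 0.702 TPM in WT, higher in the libraries with high Col1a1. Pros1, which acts mainly on the Axl relatives Tyro3 and Mertk, was far higher, at 65.0 and 62.8 TPM in PAD4-DN and 45.3 and 58.0 TPM in WT. Igf1 followed the Col1a1 split as well, at 2.02 and 0.163 TPM in PAD4-DN and 0.0170 and 1.11 TPM in WT, and Igf2 stayed between 1.27 and 2.99 TPM.

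Fgf7 and Fgf10, which act mainly on Fgfr2, were also present. Fgf7 was at 24.2 and 31.1 TPM in PAD4-DN against 20.7 and 21.3 TPM in WT, and Fgf10 at 6.998 and 8.40 TPM against 10.1 and 5.90 TPM. Their main receptor Fgfr2 had 0 counts in every library. Fgf1 and Fgf2, which bind Fgfr1, did not exceed 5.51 and 2.11 TPM. Of the 30 ligand genes, 23 were tested, 0 rose and 0 fell, and 0 had an unadjusted p under 0.05. Their median log2 fold change was 0.14, against 0.01 over all tested genes. Tgfa, an Egfr ligand at 0.359 to 0.810 TPM, was second by p, with a log2 fold change of −0.82 (SE 0.46, adjusted p = 0.988 by edgeR), which was −0.40 without WT replicate 2.

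Insulin-like growth factor binding proteins, which hold the ligands of Igf1r, were dominated by Igfbp4, at 1434 and 1093 TPM in PAD4-DN and 1343 and 1174 TPM in WT. Igfbp6 was at 52.0 and 55.2 TPM against 48.6 and 46.9 TPM, a log2 fold change of 0.09 (SE 0.13) that was 0.0216 without WT replicate 2. Igfbp5 was at 2.30 and 0.0869 TPM in PAD4-DN and at 0 and 8.57 TPM in WT, a log2 fold change of −1.91 (SE 2.12) that rests on WT replicate 2. Igfbp7 was at 9.78 and 0.667 TPM in PAD4-DN against 1.62 and 8.75 TPM in WT, again high in the libraries with high Col1a1. Of 7 binding proteins 5 were tested and 0 passed in either direction.

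Among the other receptors, 28 of 48 were tested and 0 passed in either direction. By unadjusted p, 3 of the 28 were under 0.05, against 2.65% of all tested genes. The CPM of both PAD4-DN libraries lay above both WT libraries for 3 of the 28, against 15.4% of all tested genes. It lay below them for 4, against 17.4% of all tested genes. The 3 receptors with an unadjusted p under 0.05 by edgeR were Epha2, Flt1 and Ephb6. Epha2 was at 98.1 and 88.4 CPM in PAD4-DN, against 121 and 130.3 CPM in WT, a log2 fold change of −0.43 (SE 0.12, unadjusted p = 0.0134, adjusted p = 0.988 by edgeR). Flt1, a receptor of vascular endothelial growth factor, was at 21.8 and 18.9 CPM in PAD4-DN against 28.9 and 29.1 CPM in WT, a log2 fold change of −0.51 (SE 0.14, unadjusted p = 0.0121). Ephb6, named after its value was seen, was at 2.63 and 2.18 CPM against 3.69 and 5.20 CPM. Endothelial markers, which Flt1 accompanies in vessels, summed to 52.9 and 33.7 TPM in PAD4-DN and 31.9 and 28.7 TPM in WT, with 6 of 10 under 1 TPM in every library and none at 0 in all. Macrophage markers, among them the receptors Csf1r and Mertk, summed to 130.1 and 36.5 TPM in PAD4-DN and 69.6 and 73.5 TPM in WT, and Csf1r was at 2.33 and 0.398 TPM against 1.27 and 1.43 TPM.

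Genes that carry the receptor signal inward were present in all libraries. All 24 adaptors and proximal effectors were tested, 0 rose and 0 fell, and their median log2 fold change was 0.06. Crk and Nras were among the most abundant of them, with Crk at 92.8 and 99.6 TPM in PAD4-DN against 85.1 and 97.2 TPM in WT. Pik3r1, the regulatory subunit of PI3-kinase, had the smallest p, at 182 and 131 CPM in PAD4-DN against 110.2 and 110.8 CPM in WT (log2 fold change 0.50, SE 0.18, unadjusted p = 0.0358, adjusted p = 0.988 by edgeR). PAD4-DN replicate 1 was the highest, and without it the log2 fold change was 0.24. Src was second by p, at −0.20 (SE 0.12), or −0.11 without WT replicate 1.

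Negative regulators were abundant, led by Dusp6, a phosphatase of ERK, at 217 and 191 TPM in PAD4-DN and 191 and 188 TPM in WT. Errfi1, an inhibitor of Egfr and Erbb2, was at 238 and 189 TPM against 187 and 124 TPM, and Igf2r, which removes Igf2, at 172 and 161 TPM against 149.8 and 134 TPM. All 26 were tested, 0 rose and 0 fell, and the median log2 fold change was 0.04. Spry1 and Dusp6 had the smallest p, at log2 fold changes of 0.48 (SE 0.29) and 0.20 (SE 0.13). Spry1 was at 0.0772 without PAD4-DN replicate 1, and Dusp6 at 0.0316 with effective length offsets. Spry1 was highest in PAD4-DN replicate 1, at 21.2 CPM, against 13.1 CPM in the other PAD4-DN library and 10.7 and 13.96 CPM in WT.

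Co-receptors that present ligands were led by the hyaluronan receptor Cd44, at 240.3 and 273 TPM in PAD4-DN and 267 and 231 TPM in WT, followed by Lrp1 and Sdc2. Of 14, 12 were tested and 0 passed, with a median of 0.06. Kl, the Klotho co-receptor, had the smallest p at a very low level, 0.307 and 0.323 TPM in PAD4-DN against 0.185 and 0.149 TPM in WT, and Lrp1 was at a log2 fold change of 0.20 (SE 0.18), or −0.036 without PAD4-DN replicate 1. All 6 sheddases, the proteases that release receptor and ligand ectodomains, were tested and 0 passed, with a median of 0.03. Adam10, Adam17 and Adam9 were the most abundant, between 70.4 and 116 TPM in every library. Adam19 had the smallest p, at 62.2 and 74.0 CPM in PAD4-DN against 48.2 and 53.2 CPM in WT (log2 fold change 0.43, SE 0.14, unadjusted p = 0.0272, adjusted p = 0.988 by edgeR), and Adam15 was at −0.20 (SE 0.19), or 0.0161 without PAD4-DN replicate 2.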

How the data were processed

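Poly-A RNA was sequenced from TdTomato-positive, CD45-negative LLC cells, 2 PAD4-DN and 2 WT libraries. The submitters' processing notes name kallisto and GRCm39; its version, annotation and settings were not found in the labels. Per library, the authors' tables hold estimated counts, effective lengths and TPM for 117486 transcripts, per the file headers; the deposited estimated counts are not normalized, and the deposited TPM values are scaled for effective length. Of these, 116408 transcripts matched GENCODE M21 by identifier without version. That annotation is on an older build, so only names, exon structure, chromosomes and transcript sequences of equal length were taken from it. Values were summed per gene and counts rounded. Kallisto splits reads between overlapping transcripts by estimate, so transcript shares are uncertain.

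Libraries were compared with edgeR 4.0.16 in R 4.3.3 (TMM, filterByExpr, quasi-likelihood test, Benjamini-Hochberg over 13718 genes, threshold 0.05). Each log2 fold change sets PAD4-DN over WT, and intervals are 95%. Members and lists were chosen with earlier results of these data known. Named genes are all members, the 10 most abundant other receptors, and of each pathway list the 3 most abundant and the 2 with the smallest p; Ephb6 and further ligand and marker levels were added after their values were seen. An item that the rule names is not reported here. Likeness was the Euclidean distance of centred log2 CPM for the 2 tested members with the widest range. Alternatives were DESeq2 1.42.0, limma 3.58.1 (voom, and trend on log2(TPM + 1) or log2(TPM + 0.1) at a mean TPM of at least 1), DESeq2 size factors, no low-count filter, effective length offsets, protein-coding genes only, a replicate block and each library left out. The test was tried on simulated counts. Libraries were amplified by PCR without molecular identifiers, so reads are not independent molecules.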

Additional observations from a re-analysis of the deposited data

How the results depend on the processing

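The count of receptors called stayed at 0 under every alternative tried. The count of all genes called was 0 in the comparison as reported, 10 without the low-count filter and 11 with DESeq2, none of them a receptor of the list, and 0 to 2 with 1 library left out; in such fits the lone library of a group is assumed to vary like the others. With the replicate number as a block, 0 genes were called (309 at an unadjusted p under 0.05). Same-numbered libraries deviated in opposite directions (r = −0.344 across genes). This r cannot decide whether the numbers pair the libraries, because each group gives a single difference between its libraries. The crossed pairing, chosen after the data were seen, also gave 0 genes (412). The order of the receptors held for 8 to 10 of 10 places. Axl passed Fgfr1 in the mean of the WT libraries (216 against 191 TPM), but by single library only in WT replicate 2. It also did so in the mean without PAD4-DN replicate 1. In a check chosen after the data were seen, it did so over transcripts with at least 85% of the longest coding length (159 against 158 TPM).

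Signs reversed for Igf1r without the low-count filter (−0.00752) and with effective length offsets (−0.0214), for Ddr2 with those offsets (−0.0574) and for Igfbp5 with limma-voom (0.71); the cause was not tested. With 1 library left out, log2 fold changes ran from −0.23 to 0.24 for Pdgfra, −1.02 to 0.40 for Pdgfrb, −0.13 to 0.12 for Egfr, −0.61 to 0.29 for Erbb2, −0.56 to 0.0724 for Met, −0.0259 to 0.35 for Fgfr1, −0.0747 to 0.0864 for Igf1r, −0.18 to 0.18 for Ddr2, −0.036 to 0.40 for Lrp1, −0.46 to 0.0161 for Adam15 and −5.74 to 9.76 for Igfbp5. Over all 47 genes named by rule or value, 22 of 466 alternative values without omission and 48 of 188 with 1 library left out changed sign, and 0 passed the threshold. Kit had too few counts to be tested.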
